A study of Homo sapiens with 6 samples.

Results

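The genes described here are 10 genes that ERK signalling is known to induce: the MAP kinase phosphatases DUSP4, DUSP5 and DUSP6, the Sprouty genes SPRY1, SPRY2 and SPRY4, the Sprouty-related genes SPRED1 and SPRED2, and the PEA3 transcription factors ETV4 and ETV5. They were taken by name from the 23024 genes listed, with earlier results of these data known, and all 10 were present. Expression was measured by RNA sequencing in 5637 cells, an established human bladder carcinoma line. Of 6 libraries, 3 are named NC and carry the genotype label WT, and 3 carry a short hairpin RNA against RAD51C and the genotype label RAD51C knockdown. The labels give neither the meaning of NC, the hairpin sequence nor a time point. They do not say that the 3 libraries of each group were separate cultures, and every p-value therefore reflects library-to-library spread alone, possibly technical. Values are FPKM, a read density scaled to the length of the gene and to the size of the library.

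ERK is the last kinase of a cascade that runs from growth factor receptors through RAS, RAF and MEK, and it is known for driving proliferation of epithelial cells, the urothelium included. Active ERK switches on the transcription of its own inhibitors, which act at several steps of the cascade and so limit the strength and length of the signal. The dual-specificity phosphatases act on ERK itself, Sprouty and SPRED proteins act upstream around RAS and RAF, and ETV4 and ETV5 are transcription factors made in response to the pathway. The levels of these mRNAs are often read as a record of recent ERK output, but ERK phosphorylation was not measured in these libraries.

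RAD51C, the targeted gene, was at 14.7, 13.2 and 13.6 FPKM in NC 1, 2 and 3 and at 3.51, 3.09 and 2.95 FPKM in sh-RAD51C 1, 2 and 3, which is 23% of the NC mean (exact two-sided permutation p = 0.1, the smallest that 3 libraries against 3 allow). Depth, inferred from the steps of the FPKM values, was 36068282 to 37560184 reads in NC and 37104318 to 38079825 reads in sh-RAD51C. All 10 epithelial and urothelial markers checked were above 1 FPKM, EPCAM, KRT5, KRT7 and TP63 among them. They did not move together: EPCAM, KRT7, KRT8, KRT18 and GATA3 were called higher in sh-RAD51C and CDH1, KRT5, KRT17, KRT19 and TP63 lower. Their sum, which a few abundant keratins carry, was 3260 to 3360 FPKM in NC and 2800 to 2910 FPKM in sh-RAD51C. None of 5 endothelial markers averaged 1 FPKM (sums of 0.16 to 0.254 FPKM in NC and 0.331 to 0.446 FPKM in sh-RAD51C). Of 6 fibroblast and 6 blood cell markers, 5 and 3 were listed, with sums of 9.74 to 10.5 and 1.47 to 1.78 FPKM in NC and of 6.62 to 7.38 and 0.377 to 0.98 FPKM in sh-RAD51C. COL1A2, DCN and PTPRC, which mark fibroblasts and leukocytes, did not exceed 0.0152 FPKM in any library. COL1A1 (9.94 ± 0.397 FPKM in NC and 6.83 ± 0.386 FPKM in sh-RAD51C, SD, n = 3) and CD14 (1.57 ± 0.156 and 0.573 ± 0.334 FPKM) were the only fibroblast and blood cell markers at a mean of 1 FPKM or more, and their part in the results was not tested. In bulk RNA, fewer cells that express a gene and less RNA per cell cannot be told apart.

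Most of the feedback genes were higher in the knockdown libraries, but not all, and the size of the difference ran from none detected to 2.38-fold. Of the 10 genes, 9 averaged 1 FPKM or more across the libraries and were tested with limma on log2(FPKM + 1). Of these, 7 were called higher at a Benjamini-Hochberg adjusted p under 0.05 and 0 lower (0 also at an unadjusted p under 0.05, and 0 with limma's voom on inferred reads). Over all 11152 genes tested, 49.4% were called, 23.2% higher and 26.2% lower. The median log2 fold change was 0.5 over the 9 genes and -0.01 over all genes tested. SPRY4 passed the filter only through its level in sh-RAD51C, and ETV5 did not pass it, so the count over the genes tested is a description. In 8 of the 10 genes, ETV5 among them, every sh-RAD51C library lay above every NC library. Of all genes tested, which leave ETV5 out, 27.6% showed that pattern. The share over all listed genes was not computed. The plot of levels by library shows these 8 beside SPRY1 and SPRED2, whose groups overlapped.

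**Figure D1:**
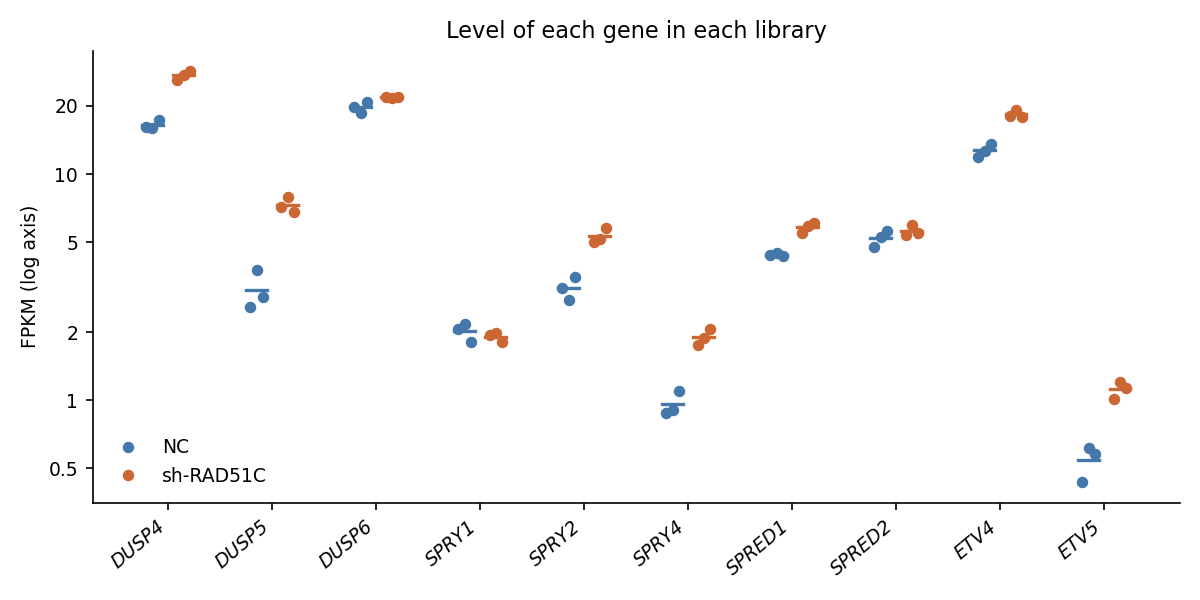
FPKM (log axis) of the 10 genes in each of the 6 libraries, NC in blue and sh-RAD51C in orange, with a line at each group mean. Points of the groups overlap only for SPRY1 and SPRED2, and the range runs from 0.435 FPKM for ETV5 in NC 1 to 28.5 FPKM for DUSP4 in sh-RAD51C 3.

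Among the phosphatases DUSP5 showed the largest relative difference. DUSP5 is a nuclear phosphatase specific for ERK, and its gene spans positions 110497838 to 110511544 of chromosome 10, plus strand (GENCODE 29, GRCh38). It was at 2.59, 3.75 and 2.87 FPKM in NC 1, 2 and 3 and at 7.17, 7.95 and 6.77 FPKM in sh-RAD51C 1, 2 and 3. The lowest knockdown library was far above NC 2, the highest control, and the inferred reads were 231 to 349 in NC and 637 to 731 in sh-RAD51C. The log2 fold change was 1.04 ± 0.0965 (SE; limma adjusted p = 6.84e-06), larger than that of 99.5% of the genes tested.

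DUSP4, a nuclear phosphatase that acts on ERK and on other MAP kinases, had the highest level of the 10 genes in sh-RAD51C. Its gene spans positions 29333064 to 29350668 of chromosome 8, minus strand. NC 1, 2 and 3 held 16.1, 16.0 and 17.3 FPKM, and sh-RAD51C 1, 2 and 3 held 26.0, 27.5 and 28.5 FPKM. The groups stood well apart, with a spread of 0.762 FPKM (SD, n = 3) in NC and 1.26 FPKM in sh-RAD51C around means of 16.5 and 27.3 FPKM. The difference was 1.66-fold by means (log2 fold change 0.70 ± 0.0478 SE, limma adjusted p = 7.48e-07).

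DUSP6, the cytoplasmic phosphatase that is specific for ERK, differed far less. Its gene spans positions 89347232 to 89353271 of chromosome 12, minus strand. Its level was 19.8, 18.6 and 20.7 FPKM in NC 1, 2 and 3 and 21.9, 21.6 and 22.0 FPKM in sh-RAD51C 1, 2 and 3. The groups did not overlap, but NC 3 and the lowest knockdown library were close, and the means differed 1.11-fold. The log2 fold change was 0.14 (95% interval 0.04 to 0.24, limma adjusted p = 0.0213). That call was lost without NC replicate 1 (limma adjusted p = 0.0528), without NC replicate 2 (0.109), without sh-RAD51C replicate 3 (0.0548) and with all listed genes in the fit (0.0526). Over the alternatives that adjusted p ran from 0.0113 to 0.109. Exons of an antisense gene, AC024909.2, cover 40.5% of the exonic bases of DUSP6 in GENCODE 29, and reads of the pair cannot be separated because the strand setting of the counting is not given.

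The order of the phosphatases by level differed between the groups. In NC, DUSP6 was above DUSP4 in every library, with a DUSP4 to DUSP6 ratio of 0.813, 0.859 and 0.837 in NC 1, 2 and 3. In sh-RAD51C, DUSP4 was the higher, with ratios of 1.19, 1.27 and 1.30. DUSP5 gave 7.84 ± 1.69% (SD, n = 3) of the summed FPKM of the 3 phosphatases in NC and 12.9 ± 1.07% in sh-RAD51C, while the share of DUSP6 was 50.2 ± 1.5% and 38.7 ± 0.981%. The sum itself was 39.2 ± 1.48 FPKM in NC and 56.4 ± 1.21 FPKM in sh-RAD51C.

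SPRY2 and SPRY4 rose and SPRY1 did not pass the test. Sprouty proteins are inhibitors of receptor tyrosine kinase signalling, and SPRY2 is known to bind the ubiquitin ligase CBL. SPRY2, at 80335976 to 80340951 of chromosome 13, minus strand, was at 3.13, 2.78 and 3.49 FPKM in NC 1, 2 and 3 and at 5.02, 5.14 and 5.75 FPKM in sh-RAD51C 1, 2 and 3. Every knockdown library exceeded every control library, and the means differed 1.69-fold (log2 fold change 0.61 ± 0.0749 SE, limma adjusted p = 5.66e-05).

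SPRY4, at 142310427 to 142326455 of chromosome 5, minus strand, was the least abundant Sprouty gene in NC. Its level was 0.875, 0.908 and 1.10 FPKM in NC 1, 2 and 3 and 1.75, 1.89 and 2.07 FPKM in sh-RAD51C 1, 2 and 3, from 226 to 296 and from 477 to 563 inferred reads. The groups were apart, at 1.98-fold by means. The fitted difference was 0.57 ± 0.0748 (SE; limma adjusted p = 9.78e-05). The added 1 in log2(FPKM + 1) shrinks differences of genes near that level, and voom on inferred reads gave 0.99.

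SPRY1, at 123396795 to 123403760 of chromosome 4, plus strand, was at 2.06, 2.18 and 1.82 FPKM in NC 1, 2 and 3 and at 1.94, 1.98 and 1.80 FPKM in sh-RAD51C 1, 2 and 3. The groups overlapped, and the lowest value of each was almost the same. The log2 fold change was -0.05 (95% interval -0.21 to 0.10, limma adjusted p = 0.555), turning to 0.03 with quantile normalization. That interval lies below the 0.61 of SPRY2 and the 0.57 of SPRY4. SPRY1 stood above SPRY4 in every NC library (2.02 ± 0.186 against 0.961 ± 0.122 FPKM, SD, n = 3), whereas in sh-RAD51C their values overlapped (1.91 ± 0.0948 and 1.90 ± 0.16 FPKM). SPRY1 made up 33.2 ± 4.45% of the summed FPKM of the 3 Sprouty genes in NC and 21.0 ± 1.98% in sh-RAD51C.

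SPRED1 and SPRED2 recruit neurofibromin, the RAS GTPase-activating protein encoded by NF1, to the membrane, where RAS is turned off. SPRED1, at 38252326 to 38357249 of chromosome 15, plus strand, was at 4.37, 4.46 and 4.34 FPKM in NC 1, 2 and 3 and at 5.51, 5.89 and 6.09 FPKM in sh-RAD51C 1, 2 and 3. The control libraries were nearly equal and all lay below the knockdown libraries (1.33-fold by means, log2 fold change 0.34 ± 0.0556 SE, limma adjusted p = 4.39e-04).

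SPRED2, at 65310851 to 65432637 of chromosome 2, minus strand, was at 4.74, 5.28 and 5.58 FPKM in NC 1, 2 and 3 and at 5.36, 5.96 and 5.49 FPKM in sh-RAD51C 1, 2 and 3. NC 3 was higher than sh-RAD51C 1 and 3, so the groups overlapped. The log2 fold change was 0.09 (95% interval -0.05 to 0.24, limma adjusted p = 0.269). SPRED2 exceeded SPRED1 in every NC library, and their values overlapped in sh-RAD51C.

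ETV4 and ETV5 were both higher in the knockdown libraries, at very different levels. Both are ETS-family factors of the PEA3 group, which are produced in response to FGF and ERK signalling. ETV4, at 43527844 to 43579620 of chromosome 17, minus strand, was at 12.0, 12.7 and 13.6 FPKM in NC 1, 2 and 3 and at 18.0, 19.1 and 17.9 FPKM in sh-RAD51C 1, 2 and 3. All 3 knockdown libraries were above all 3 control libraries, 1.44-fold by means (log2 fold change 0.50 ± 0.0519 SE, limma adjusted p = 1.70e-05). Its exons share 68 bases, 1.9% of their total, with DHX8 on the other strand, which was not higher in sh-RAD51C (29.5, 28.2 and 29.1 FPKM in NC and 25.4, 26.4 and 28.1 FPKM in sh-RAD51C).

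ETV5, at 186046308 to 186110318 of chromosome 3, minus strand, was at 0.435, 0.613 and 0.580 FPKM in NC 1, 2 and 3 and at 1.01, 1.20 and 1.13 FPKM in sh-RAD51C 1, 2 and 3. These values rest on 64, 94 and 89 inferred reads in NC and on 157, 182 and 176 in sh-RAD51C, and the groups were apart at 2.05-fold by means. With a mean below 1 FPKM the gene was tested only in a fit without the filter, where it was called higher (log2 fold change 0.46 ± 0.0656 SE, limma adjusted p = 0.00528). In that fit 10.4% of 23024 genes were called higher. As for SPRY4, the added 1 shrinks the difference of ETV5, which was 0.93 with a pseudocount of 0.1. The exons of ETV5 share 164 bases, 2.8% of their total, with DGKG, which was at 0.0093 FPKM or less in every library. ETV4 supplied 95.9 ± 0.553% (SD, n = 3) of the summed FPKM of ETV4 and ETV5 in NC and 94.3 ± 0.358% in sh-RAD51C.

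Within-library ratios of FPKM were compared for 6 pairs of relatives, of which SPRY2 to SPRY1 and DUSP5 to DUSP6 were chosen after their values were seen. SPRY2 to SPRY1 was 1.57 ± 0.326 (SD, n = 3) in NC and 2.79 ± 0.348 in sh-RAD51C, and DUSP5 to DUSP6 was 0.157 ± 0.0389 and 0.334 ± 0.0308. SPRED1 to SPRED2 was 0.849 ± 0.0725 and 1.04 ± 0.0621. SPRY2 to SPRY4 was 3.27 ± 0.269 and 2.79 ± 0.0735, and ETV4 to ETV5 was 23.9 ± 3.43 and 16.5 ± 1.14, so in these pairs the gene at the lower level gained on its relative. On the log2(FPKM + 1) scale the differences of the last pairs turn sign, at 0.04 for each, since the added 1 weighs most on the lower gene. In each of the 6 pairs the groups did not overlap. The exact two-sided permutation p was 0.1, the smallest possible, and 0.1 after Benjamini-Hochberg adjustment over the 6 pairs. The share of other gene pairs that separate in this way was not computed, so the count describes these pairs only.

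**Figure D2:**
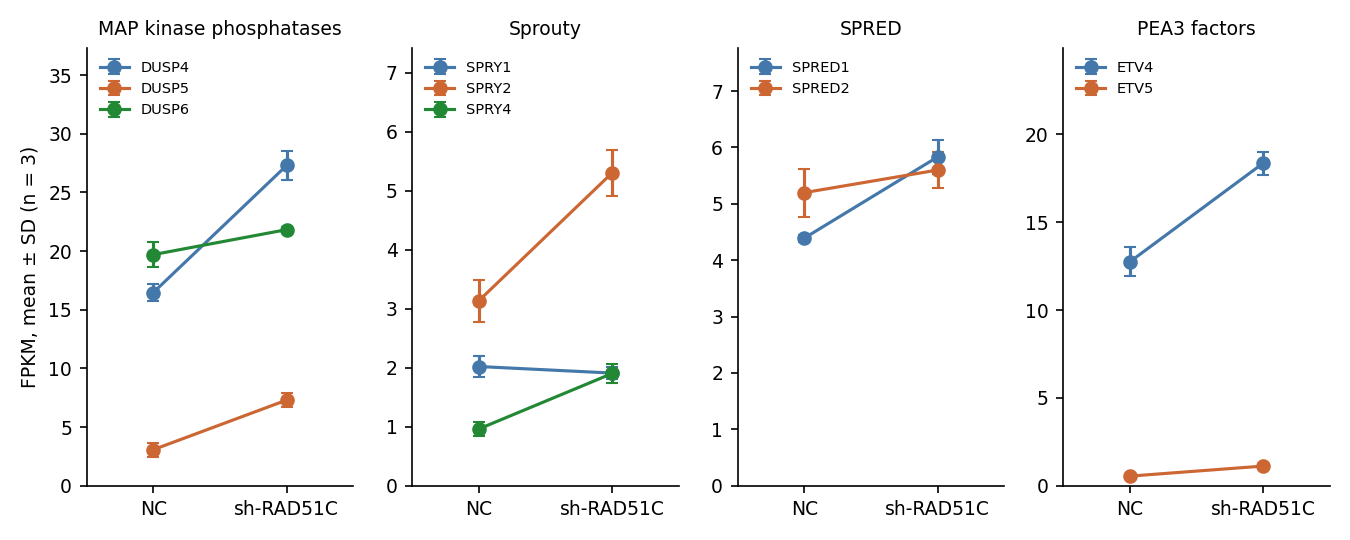
Mean FPKM ± SD (n = 3) in NC and sh-RAD51C for each family, on axes that start at 0 and differ between panels. DUSP4 crosses DUSP6, SPRY4 reaches the level of SPRY1, SPRED1 reaches that of SPRED2, and ETV4 stays far above ETV5.

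Ranked by FPKM, the order of the 10 genes in NC was DUSP6, DUSP4, ETV4, SPRED2, SPRED1, SPRY2, DUSP5, SPRY1, SPRY4 and ETV5. The only neighbours in that order whose libraries overlapped were SPRY2 and DUSP5. In sh-RAD51C the order was DUSP4, DUSP6, ETV4, DUSP5, SPRED1, SPRED2, SPRY2, SPRY1, SPRY4 and ETV5. There SPRED1 overlapped SPRED2, SPRED2 overlapped SPRY2, and SPRY1 overlapped SPRY4, so these neighbours are not ordered beyond their spread. DUSP5 moved from rank 7 to rank 4.

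**Figure D3:**
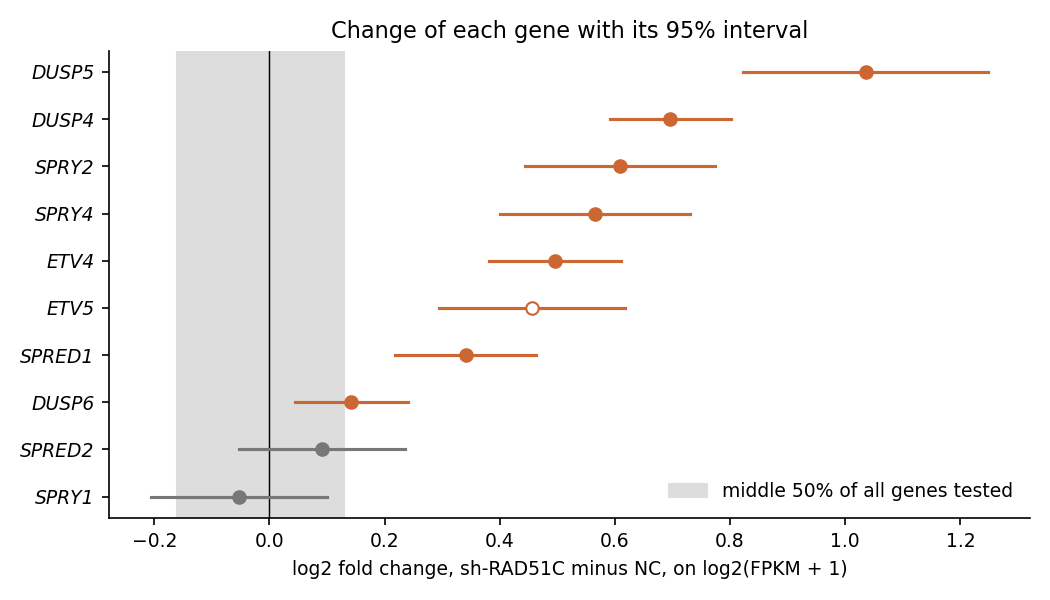
Log2 fold change of each gene (sh-RAD51C minus NC on log2(FPKM + 1)) with its 95% interval from limma; called genes are orange, others grey, and the open circle marks ETV5 from the fit without the filter. The grey band from -0.16 to 0.13 holds the middle 50% of all genes tested, and DUSP5, at 1.04, is the farthest from it. The added 1 shrinks the changes of genes near 1 FPKM, here SPRY4 and ETV5.

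The 5 genes outside this set whose log2 values over the 6 libraries followed the mean standardised profile of the 9 tested genes most closely were INAFM2, SNHG1, FSTL1, DHX37 and RRP12, with Pearson's r from 0.9986 to 0.9989. The r describes 6 libraries that fall into 2 groups, and 133 of 11143 genes reached an r of at least 0.99. The levels of INAFM2 were 18.5 ± 0.78 FPKM in NC and 27.1 ± 0.92 FPKM in sh-RAD51C (SD, n = 3). FSTL1 followed the profile at 1.07-fold by means, since r takes no account of size. Its call (limma adjusted p = 0.023) was lost without NC replicate 1 (0.0946), NC replicate 2 (0.0691) or sh-RAD51C replicate 2 (0.0664). The FSTL1 call was also lost with quantile normalization (log2 fold change 0.05, limma adjusted p = 0.173) and in limma without the trend (0.069).

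Promoters are shown because most of these genes rose together and some did not. RefSeq promoter windows (GRCh38.p14, 250 bases before to 50 after a start site) were searched for DUSP6, SPRED1, SPRED2, SPRY1, SPRY2 and SPRY4, 10 windows in all. Both strands were searched for an ETS core (CCGGAAG), an AP-1 site (TGANTCA), a cyclic AMP response element (TGACGTCA) and an octamer bound by the repressor CIC (TGAATGAA, TGAATGGA, TCAATGAA or TCAATGGA). The octamers that start with TCAATG were added after these windows had been seen. Of 35116 windows of that length, 10.26% hold the ETS core, 7.71% the AP-1 site, 1.85% the response element and 3.77% a CIC octamer. No matches overlapped in the 10 windows.

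The windows printed here run from 200 bases before the start site to 20 after, 5′ to 3′ on the gene's strand, with motif matches in capitals. DUSP6 is shown because it holds 2 CIC octamers and differed little in level, SPRY1 and SPRED2 because they hold an ETS core and an AP-1 site and were not called, and SPRY4 because it rose and holds none of the letters searched. They lie at chr12:89352482-89352701 (minus), chr4:123398186-123398405 (plus), chr2:65366759-65366978 (minus) and chr5:142324228-142324447 (minus).
DUSP6: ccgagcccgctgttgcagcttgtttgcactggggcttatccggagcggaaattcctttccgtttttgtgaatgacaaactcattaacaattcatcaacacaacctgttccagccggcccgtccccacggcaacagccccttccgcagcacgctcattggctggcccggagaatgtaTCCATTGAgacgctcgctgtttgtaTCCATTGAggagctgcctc
SPRY1: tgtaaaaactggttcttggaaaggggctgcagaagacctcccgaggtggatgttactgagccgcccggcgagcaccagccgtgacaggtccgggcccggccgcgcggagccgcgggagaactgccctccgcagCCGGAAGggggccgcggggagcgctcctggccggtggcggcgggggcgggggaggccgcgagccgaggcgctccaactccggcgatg
SPRED2: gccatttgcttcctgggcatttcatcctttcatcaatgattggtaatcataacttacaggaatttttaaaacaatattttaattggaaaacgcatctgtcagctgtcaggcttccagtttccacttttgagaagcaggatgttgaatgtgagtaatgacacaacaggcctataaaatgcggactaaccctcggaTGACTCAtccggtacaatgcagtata
SPRY4: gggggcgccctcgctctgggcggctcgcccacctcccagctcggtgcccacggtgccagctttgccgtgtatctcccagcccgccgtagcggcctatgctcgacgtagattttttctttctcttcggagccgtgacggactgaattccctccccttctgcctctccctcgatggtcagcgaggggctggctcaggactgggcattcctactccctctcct

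Both DUSP6 matches read TCCATTGA, the reverse complement of TCAATGGA, a form added after the windows had been seen. They start 24 bases before and 1 base after the start site. The ETS core of SPRY1 starts 67 bases before its second start site, and the AP-1 letters of SPRED2 start 6 bases before its downstream start site, with a second match 34 bases after it, beyond the stretch printed. None of the 5 windows of SPRY2, SPRY4 and SPRED1, the called genes searched besides DUSP6, held any of these letters. DUSP4, DUSP5, ETV4 and ETV5, all called higher, were not searched. With 10 windows and the shares of all windows given above, whether matches go with the calls was not tested. A match is only a run of letters, and its absence here concerns only these windows.

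The rest of the pathway was read from lists of genes at other steps. Among relatives of the 10 genes, 5 of 10 were tested. Of these, 3 were higher (60%, against 23.2% of all genes tested), 1 lower (20%, against 26.2%) and 1 not called. Their median log2 fold change was 0.5, the same as that of the feedback genes. DUSP1, a nuclear phosphatase that acts mainly on p38 and JNK, rose from 5.28 ± 0.382 to 9.85 ± 0.487 FPKM, and DUSP10, a phosphatase of p38 and JNK, from 3.55 ± 0.206 to 5.43 ± 0.319 FPKM (SD, n = 3 each). DUSP2, a nuclear phosphatase, rose from 1.07 ± 0.151 to 2.00 ± 0.214 FPKM. DUSP16, a phosphatase of JNK and p38, fell from 6.46 ± 0.325 to 3.32 ± 0.369 FPKM (-0.79 on the log2 scale; limma adjusted p = 4.64e-06). DUSP7, like DUSP6 a cytoplasmic phosphatase of ERK, was at 10.9 ± 0.903 and 11.0 ± 0.445 FPKM and was not called (95% interval of the log2 fold change -0.11 to 0.15). DUSP2, DUSP7, DUSP9, ETV1, EGR1, FOS, EPHA4 and COP1 were chosen after their values were seen. ETV1, the third PEA3 factor, was below the filter at 0.305 ± 0.0272 and 0.358 ± 0.0541 FPKM. DUSP9, a cytoplasmic phosphatase of ERK, was also below it, and in the fit without the filter it was called lower, from 0.570 ± 0.0409 to 0.222 ± 0.0561 FPKM (SD, n = 3; limma adjusted p = 0.00265).

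The kinases and adaptors of the cascade showed no common direction. Of 19 genes, 18 were tested. Of these, 4 were higher (22.2%, near the 23.2% of all genes tested) and 3 lower (16.7%, below 26.2%). Their median log2 fold change was -0.03. The adaptor SHC1 fell from 27.8 ± 0.819 to 22.3 ± 0.622 FPKM, while MAP2K1, which encodes MEK1, rose from 32.2 ± 0.675 to 37.2 ± 1.38 FPKM and NRAS from 32.1 ± 0.603 to 36.6 ± 1.52 FPKM (SD, n = 3 each). The number called higher was 2 in 7 alternatives, without NC replicate 1, 2 or 3 among them. Substrates of ERK, the RSK, MSK and MNK kinases with the ELK factors and SRF, had 2 higher and 2 lower of 10 tested. Each share is 20%, near the 23.2% higher and not far from the 26.2% lower of all genes tested. The higher count was 1 in 10 alternatives, without NC replicate 1, 2 or 3 and without sh-RAD51C replicate 2 or 3 among them. RPS6KA1 and MKNK2 fell by 0.31 each on the log2 scale and RPS6KA4 rose by 0.25.

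Growth factor receptors and ligands had 7 higher (58.3%, against 23.2% of all genes tested) and 3 lower (25%, against 26.2%) of 12 tested, with a median log2 fold change of 0.23. The EGFR ligand EREG rose from 23.0 ± 0.696 to 38.4 ± 2.68 FPKM and AREG, another ligand of EGFR, by 0.92 on the log2 scale, while the receptor gene ERBB3 fell from 8.83 ± 0.136 to 5.20 ± 0.254 FPKM (SD, n = 3 each; limma adjusted p = 1.96e-06). Of other genes that ERK induces, 6 of 7 tested were higher (85.7%) and 0 lower (0 at an unadjusted p under 0.05, and 0 with voom), with a median of 0.68. CCND1, EPHA2 and FOSL1 led them, with log2 fold changes of 1.97, 1.12 and 1.40. EGR1, an early target of ERK through ELK factors, was at 3.56 ± 0.342 and 3.70 ± 0.387 FPKM and was not called (limma adjusted p = 0.659), and FOS was below the filter.

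Regulators of the feedback genes had 1 higher (9.09%, against 23.2% of all genes tested) and 3 lower (27.3%) of 11 tested. Their median log2 fold change was -0.06. The share lower is near the 26.2% of all genes tested, and the share higher rests on 1 gene. The genes named next are therefore single genes and not a result about the list. CIC, a repressor known to act on ETV4, ETV5, DUSP4, DUSP6 and SPRY4 until ERK signalling relieves it, fell from 9.14 ± 0.0878 to 7.48 ± 0.201 FPKM (SD, n = 3; -0.26 ± 0.0469 SE on the log2 scale, limma adjusted p = 8.91e-04). Its partner ATXN1L fell from 8.22 ± 0.18 to 6.85 ± 0.419 FPKM. SIAH2, a ubiquitin ligase that targets SPRY2, rose from 11.0 ± 0.842 to 13.1 ± 0.41 FPKM. COP1, a ubiquitin ligase known to target ETV proteins, was at 4.73 ± 0.29 and 4.82 ± 0.25 FPKM and was not called.

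**Figure D4:**
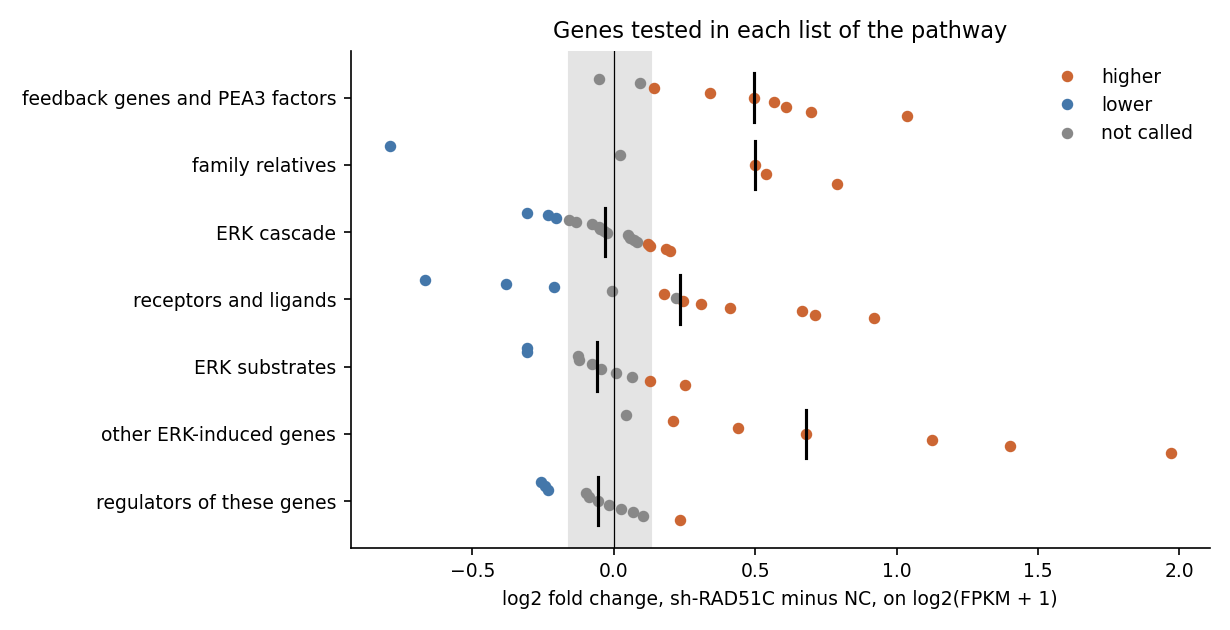
Log2 fold changes (sh-RAD51C minus NC on log2(FPKM + 1)) of every tested gene in each list, coloured by call, with a black line at the list's median and a grey band over the middle 50% of all genes tested. The medians of the feedback genes and of the other ERK-induced genes lie at 0.5 and 0.68, those of the family relatives and of the receptors and ligands at 0.5 and 0.23, and those of the cascade and the ERK substrates at -0.03 and -0.06.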

How the data were processed

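RNA of 3 NC and 3 sh-RAD51C libraries of 5637 cells was extracted with TRIzol and made into libraries with a VAHTS Universal kit, per the labels' protocols. The authors deposited FPKM values for 23024 gene symbols, and the submitters' processing notes name hg38, R 3.2.0 and DESeq2 without a role. For the aligner, counter, strand setting and annotation, a name is not given in the sources used here. The 11152 genes averaging 1 FPKM or more were compared on log2(FPKM + 1) by limma 3.58.1 under R 4.3.3 (moderated with a mean-variance trend, group as the only term), and p-values were adjusted by Benjamini-Hochberg over all of them. The fit was tested on simulated data. Whole reads were inferred from the FPKM steps: 650 RefSeq gene lengths gave the same total for NC 1, and every tested gene then gave whole reads in all 6 libraries within 0.001 reads. They cover counting depth only and were used for an alternative with voom.

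The genes and lists were chosen with earlier results of these data known. Named were RAD51C, the 10 genes, the 3 called genes with the smallest p in each further list, and the 5 most similar profiles; others are said to be chosen after their values were seen. Alternatives covered the pseudocount, filter, scaling, variance model, replicate block, threshold, inferred reads and each library left out. Positions are from GENCODE 29 and promoters from RefSeq; the latter were matched by symbol for 6 of the genes. Python 3.11.15, numpy 2.4.6 and pandas 2.3.3 did the other calculations.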

Additional observations from a re-analysis of the deposited data

How the results depend on the processing

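The number of feedback genes called higher was 7 of 9 and ran from 5 to 7 over 18 alternatives. The 5 came with a minimum mean of 5 FPKM, where 6 of the genes were tested. DUSP5 and SPRED1, with NC means of 3.07 and 4.39 FPKM, passed that minimum only through their levels in sh-RAD51C. The count of 5 is therefore a description. The number called lower was 0 in each alternative. DUSP4, DUSP5, SPRY2, SPRY4, SPRED1 and ETV4 kept their direction and call in every alternative that tested them, as did ETV5 in 15 alternatives without the filter. DUSP6 lost its call in 5 alternatives, the threshold of 0.01 and the 4 named above, at log2 fold changes from 0.10 to 0.18 over all alternatives. SPRY1 turned to 0.03 with quantile normalization. The 18 further pathway genes named by the rule kept direction and call in every alternative that tested them, while FSTL1 lost its call in 6. With the replicate number as a replicate block, 7 feedback genes were called higher, 5569 genes were called in place of 5511, and 1 ERK substrate was called higher in place of 2. Deviations of equally numbered libraries correlated at 0.19, 0.026 and 0.091 over genes. Those of unequally numbered libraries ran from -0.167 to 0.11, the latter for NC 3 with sh-RAD51C 2. These values do not decide whether the numbers mark pairs, and the main fit did not use them as pairs. The relatives had 1 higher and 0 lower with a minimum mean of 5 FPKM and 2 lower without the filter, the ERK substrates had 4 lower by voom, and the regulators 2 higher with quantile normalization. The cause of these differences was not tested. Depth was lowest for ETV5 (64 to 182 inferred reads), followed by SPRY1 (240 to 288), with SPRY4 and DUSP5 at a like depth in NC, and the intervals of SPRY1 and SPRED2 leave room for small changes.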
